A study of Mus musculus with 4 samples.

Results

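Somatostatin-dominant cells are cells of libraries labelled intestinal epithelium in which the transcript of the hormone somatostatin (Sst) outnumbers those of 5 other gut hormones. They were chosen on their own counts: a cell that showed 500 genes or more and no more than 20% mitochondrial molecules was taken if, among Sst, Gip, Ghrl, Gcg, Nts and Cck, Sst had the most molecules, made up at least 2% of the cell's total, and insulin transcripts (Ins1 and Ins2 together) made up less than 1%. Molecules are unique molecular identifiers (UMIs), each standing for 1 captured RNA. The rule found 445 cells among 11574 kept cells of 3 libraries: 106 of 4602 at embryonic day 17.5 (E17.5), 127 of 3788 in the adult and 212 of 3184 in the adult after irradiation. The whole series holds 15800 kept cells. Its remaining library, from embryonic day 12.5, held 3 Sst UMIs in all of its barcodes and is not used by the rule.

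All libraries came from mice with the Bmi1-GFP genotype, a reporter in which green fluorescent protein is made from the locus of the Polycomb gene Bmi1. Epithelial cells expressing Bmi1 were sorted by flow cytometry from dissociated intestine (the small intestine at E17.5) and sequenced by the droplet method from the 3′ ends of their RNA. Each group, E17.5, adult and irradiated adult, is 1 library. The labels do not give the dose and time of irradiation, how the cells were gated, or how many animals of which sex were used. With 1 library a group there is no test between stages or treatments, and a difference between libraries cannot be told apart from a difference between animals or preparations. Intervals below are exact 95% intervals (Poisson for levels, Clopper-Pearson for shares) and cover counting error only.

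Somatostatin is a short peptide that restrains the release of other hormones, gastric acid and pancreatic enzymes. In the gut it is made by D cells, a kind of enteroendocrine cell that arises from Neurog3-expressing progenitors, and in the pancreas by the delta cells of the islets. Hhex, a homeobox transcription factor, is needed for delta cells to form. Ghrelin (Ghrl) is the hunger-associated peptide of X cells, which Mboat4 activates by attaching a fatty acid. Iapp is amylin, a peptide best known from islet beta cells.

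The gene that defines the cells lies at chr16:23889573-23890958 on the minus strand of GRCm38 (GENCODE M21, ENSMUSG00000004366). Its start region is shown because Sst transcription is what the cells were chosen on. The 250 bases before the RefSeq start (GRCm38.p6, chr16:23890845-23891094, minus strand, written 5′ to 3′) hold the palindrome known as the cAMP response element, in capitals:

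Sst upstream: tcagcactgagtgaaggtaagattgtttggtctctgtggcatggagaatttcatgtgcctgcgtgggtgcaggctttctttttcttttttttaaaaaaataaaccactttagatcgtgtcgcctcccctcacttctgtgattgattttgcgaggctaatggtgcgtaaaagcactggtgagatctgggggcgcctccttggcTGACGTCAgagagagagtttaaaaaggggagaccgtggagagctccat

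The palindrome TGACGTCA, which reads the same on both strands, began 48 bases before the start. It occurred in 588 of 32851 RefSeq windows of 300 bases (1.79%), and its shorter form TGACG, contained in the palindrome and counted on either strand, in 20.8%. Neither form was in the windows of Hhex, Iapp or Ghrl, which says only that these letters are not in those windows.

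The hormone that chose the cells took a large share of their RNA. Sst made up between 2.06% and 33.8% of a cell's UMIs at E17.5 (median 15.4%), between 2.01% and 37.9% in the adult (median 17.9%) and between 2.12% and 30.8% after irradiation (median 16.98%). These ranges overlapped almost entirely, and they are a description, since Sst set the membership. Just outside the threshold, the highest share was 1.75% at E17.5, 1.93% in the adult and 1.86% after irradiation. The cells held 97.5% of all Sst UMIs of kept cells in the adult and 96.7% after irradiation, but 69.0% at E17.5, where much of the rest lay in ghrelin-dominant cells. Their median depth was 6741.5 UMIs at E17.5, 9388 in the adult and 11817 after irradiation, within a range of 776 to 55906.

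At E17.5, 2.30% (1.89 to 2.78) of kept cells were somatostatin-dominant; the adult share was 3.35% (2.80 to 3.98) and the irradiated share 6.66% (5.82 to 7.58). Among cells led by any of the 6 hormones the E17.5 share was 10.6%, the adult share 7.98% and the irradiated share 13.7%. The irradiated library thus had the highest share on both denominators, while the order of E17.5 and adult was not the same on both. The depth of the cells differed between libraries (all kept cells had a median of 11499, 3699.5 and 8786 UMIs in the same order), and its part in these shares was not tested; how the cells were gated is not given. With at least 1000 genes and at most 10% mitochondrial UMIs the shares of kept cells were 2.41%, 5.87% and 7.84%, and the shares of hormone-led cells 10.7%, 11.5% and 15.5%, so that the adult then stood above E17.5 on both denominators.

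The second marker fixed for these cells, Hhex, was found in most of them. An Hhex UMI was found in 104 of 106 cells at E17.5, 109 of 127 in the adult and 190 of 212 after irradiation. After each cell was thinned to 2000 UMIs the shares were 83.7%, 72.0% and 71.8%, against 0%, 0.256% and 0.446% in cells marked as fibroblasts (E17.5) or tuft cells (adult and irradiated) of the same libraries. The median depth of those cells was 5962, 4302 and 4720 UMIs. The cells without an Hhex UMI had lower median depths, 3911.5, 2233 and 1075 UMIs against 6741.5, 10450 and 12321 in cells with one, although single cells without it reached 6977, 17653 and 16690 UMIs. Their median Sst share was 14.4%, 4.83% and 4.88%. Sst set the membership and is no check of the label; Hhex, which the rule did not use, was found in most cells of all 3 libraries.

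Many of the cells carried ghrelin as well. Ghrl reached 1% of UMIs as the second of the 6 hormones in 56 of 106 cells at E17.5, 66 of 127 in the adult and 97 of 212 after irradiation. Its share ran from 0% to 21.3% at E17.5 (median 1.83%), to 15.1% in the adult (median 1.39%) and to 17.2% after irradiation (median 0.920%). After thinning to 2000 UMIs, 61.5%, 94.9% and 94.9% of the cells had a Ghrl UMI, against 6.33%, 20.3% and 30.8% of the fibroblast- or tuft-marked cells, so low Ghrl shares are not read as expression. At E17.5, 42 cells (39.6%) had at least 5% Ghrl, whereas 13.4% of adult and 9.91% of irradiated cells reached 5%. No second hormone of the 6 reached 1% in 50, 53 and 99 cells. Gip was the second hormone in 0, 6 and 10 cells. Among the 6 hormones, no cell at E17.5 had more than 1 other at that level, against 11 adult and 17 irradiated cells. Peptides outside the 6 went the other way: Pyy reached 1% in 58 E17.5, 1 adult and 0 irradiated cells, and Sct in 29, 7 and 14.

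**Figure D1:**
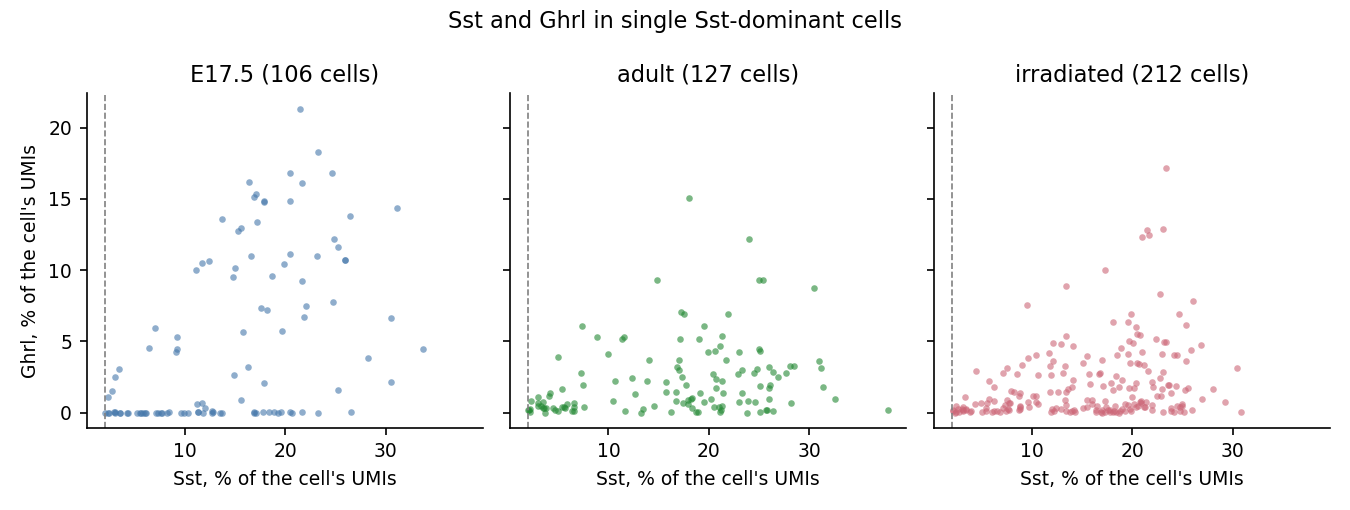
Each point is 1 somatostatin-dominant cell; the horizontal axis gives Sst and the vertical axis Ghrl as a percent of the cell's UMIs, in 1 panel per library, and the dashed line marks the 2% of Sst that the rule asked for. At E17.5, 42 of 106 cells lie at or above 5% Ghrl, against 17 of 127 in the adult and 21 of 212 after irradiation.

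The enzyme that activates ghrelin was higher where ghrelin was high. In cells with at least 5% Ghrl, Mboat4 stood at 129, 169.7 and 180.1 UMIs per 1000000 (CPM, over the summed cells) at E17.5, in the adult and after irradiation, and in cells with under 1% Ghrl at 35.9, 46.8 and 80.7. Asic5, a bile acid-sensitive ion channel, was also higher in the Ghrl-rich cells, at 668 against 2.76 CPM at E17.5, 4340.4 against 1838 in the adult and 3206 against 1552 after irradiation. Hhex did not follow the split: it stood at 936 against 1097, 813 against 729 and 878 against 727 CPM. The cells of a library share 1 preparation and were split on a measured level, so these values are a description. At E17.5 the split overlapped with the split by intestinal markers described below. Ghrl reached 1% in 53 of 64 cells with those markers and in 3 of 42 with few. Of 226 Asic5 UMIs at E17.5, 225 lay in the cells with those markers. The part of that split in the E17.5 values was not tested.

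The overlap had a reverse side at E17.5. Of its 197 ghrelin-dominant cells, 56 (28.4%) had at least 1% Sst, and their summed Sst was 26912 CPM with 199 CPM of Hhex and 2402 CPM of Iapp. None of 29 adult and none of 27 irradiated ghrelin-dominant cells reached 1% Sst. Allowing 3 cells for a count of 0, shares of up to 10.3% and 11.1% would not have been detected.

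Genes that set somatostatin-dominant cells apart from the other hormone-dominant cells were sought among genes the rule had not used. UMIs were summed over the cells of each hormone class in each library, which gave 3 sums for Sst and 14 for Gip, Ghrl, Gcg, Nts and Cck (the adult Gcg class, with 11 cells, was left out), and edgeR's quasi-likelihood test compared Sst with the mean of the other classes with library as a term. The spread that this test measures is the spread over libraries that differ in stage and treatment, and classes of 1 library come from the same preparation. Of 11061 genes tested, 748 (6.76%) were higher and 634 (5.73%) lower in Sst cells at an adjusted p under 0.05. Without TMM scaling the split was 1034 higher and 505 lower. The counts depended on the libraries: 1016 higher and 710 lower without E17.5, 355 and 315 without the adult, and 327 and 248 without the irradiated library. With the other classes pooled into 1 sum per library, as 3 pairs with library still a term, 523 were higher and 764 lower. The excess of higher genes thus turned.

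Hhex and Iapp led the higher genes. Hhex stood at 975 (907 to 1046) at E17.5, 782 (733 to 834) in the adult and 726 (693 to 759.7) after irradiation CPM, and at 0 to 199 CPM in the 14 other sums (log2 fold change 7.96, edgeR adjusted p 7.66e-10). Iapp stood at 9719 (9504 to 9938) at E17.5, 9792 (9616 to 9971) in the adult and 10583 (10456 to 10711) after irradiation CPM, against 3.71 to 2402 CPM elsewhere (log2 fold change 7.87, edgeR adjusted p 6.50e-08). Neither gene's Sst sums overlapped with any other sum, and for both the highest other sum was the ghrelin class at E17.5. Across the 3 libraries the Sst sums of each gene stood within 2-fold. Hhex lies at chr19:37434810-37440731 on the plus strand (ENSMUSG00000024986) and Iapp at chr6:142298423-142303961 on the plus strand (ENSMUSG00000041681).

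The next genes encode channels and enzymes. The mechanosensitive potassium channel gene Kcnk2 stood at 62.6 at E17.5, 251 in the adult and 207 after irradiation CPM, against 0 to 20.01 in the other sums (log2 fold change 7.31). Asic5 (chr3:81982290-82021233, plus strand, ENSMUSG00000028008) stood at 283 at E17.5, 2626 in the adult and 1909.7 after irradiation CPM, against 0 to 212 (log2 fold change 6.91). Fam151a had a log2 fold change of 6.88, and Arg1, the arginase of the urea cycle, of 5.57. None of these 4 overlapped with the other classes, and their edgeR adjusted p ran from 7.61e-10 (Arg1) to 7.14e-08 (Fam151a). Unlike Hhex, 3 of them were lower at E17.5 than in the adult: on the log2(CPM + 1) scale the adult to E17.5 ratio was 3.21 for Asic5, 1.99 for Kcnk2 and 2.01 for Fam151a.

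Receptor genes differed in both directions. Of 23 receptor genes tested, 4 were higher and 7 lower, against 6.76% and 5.73% of all genes tested. Ramp1 and Calcrl, whose products together form the receptor for calcitonin gene-related peptide, a messenger of sensory nerves, had log2 fold changes of 3.26 (edgeR adjusted p 4.05e-06) and 4.86 (adjusted p 4.28e-05). Calcrl was nevertheless sparse, at 16.3 at E17.5, 9.13 in the adult and 9.55 after irradiation CPM. Adra2a, the alpha-2A adrenergic receptor, was also among the higher ones, with a log2 fold change of 3.47. The 7 lower genes were the fatty acid receptors Ffar1 (-4.56) and Ffar3 (-1.62), the lipid amide receptor Gpr119 (-4.79), the galanin receptor Galr1 (-2.73), the somatostatin receptor Sstr5 (-1.84) and the prostaglandin receptors Ptger3 (-2.35) and Ptger4 (-1.48). Ffar1 stood at 1.25 at E17.5, 7.47 in the adult and 13.9 after irradiation CPM in Sst cells and at 40.02 to 462 in the others, without overlap. The call was lost for Ptger3 without E17.5 (edgeR adjusted p 0.994), for Ffar3 (0.103) and Ptger4 (0.157) without the adult, and for Ptger4 (0.437) and Sstr5 (0.0765) without the irradiated library. Th, which encodes the first enzyme of catecholamine synthesis, was also higher, at 55.05 at E17.5, 98.8 in the adult and 103 after irradiation CPM against 1.05 to 53.2 (log2 fold change 2.76).

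Among 29 endocrine transcription factors tested, 6 were higher and 8 lower, against 6.76% and 5.73% of all genes tested. Besides Hhex, the higher ones were the pancreatic and duodenal factor Pdx1 (2.91), Sox4 (1.26), Isl1 (0.90), Onecut2 (0.78) and Nkx6-1, a beta cell factor that had UMIs only at E17.5. Pdx1 was 145, 148 and 149.7 CPM across the libraries, above all 14 other sums. Among the lower ones were Etv1 (-3.10), Neurod1 (-1.85), Rfx6 (-1.30), Fev (-1.14), Gata4 (-1.10), Pax6 (-0.90) and Nkx2-2 (-0.66). Values in parentheses are log2 fold changes, each with an edgeR adjusted p of 0.0477 or less. With the other classes pooled within each library, Onecut2 (edgeR adjusted p 0.288) and Nkx6-1 (0.12049) lost their calls, which left 4 higher. Onecut2, Gata4, Rfx6 and Nkx2-2 lost theirs without the adult (edgeR adjusted p 0.0618 to 0.401), and these 4 and Pax6 without the irradiated library (0.0634 to 0.220).

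Secretory genes were lower more often than higher, while of all genes tested 6.76% were higher and 5.73% lower. Of 33 granule and processing genes tested, 7 were lower, among them the granin Scg2 (log2 fold change -2.28), the carboxypeptidase Cpe (-1.48), the amidating enzyme Pam (-1.21) and the exocytosis factor Cadps (-1.37). The prohormone convertase Pcsk2 was 1 of the 2 higher, at 548 at E17.5, 35.7 in the adult and 43.8 after irradiation CPM (3.75), and the signal peptidase subunit Sec11c the other (0.59). Of the peptide genes not used by the rule, Sct, which encodes secretin, was lower (-2.79), while Cartpt (1.98) and Mboat4 (2.52) were higher. Mboat4 stood at 73.9 to 94.7 CPM in the Sst sums and reached 273 in the irradiated Ghrl class, and 3 of the 14 other sums reached its lowest Sst sum. Among 27 channel and transporter genes, 4 were higher and 4 lower. The subunits of the ATP-sensitive potassium channel, Abcc8 (1.02) and Kcnj11 (0.67), were both higher, as were the calcium channel gene Cacna1d (1.18) and Kcnma1 (1.73). Of 8 genes reported for pancreatic delta cells, 5 were higher and none lower, among them Hhex, Pdx1, Spock3 (2.49) and Nrgn (0.93), the last with 0 UMIs at E17.5. With the other classes pooled within each library, Cartpt (edgeR adjusted p 0.425), Kcnj11 (0.207) and Nrgn (0.171) lost their calls. With doublets removed Cartpt (log2 fold change 0.62, edgeR adjusted p 0.675) and Nrgn (0.0520) lost theirs. With classes of at least 50 cells Cartpt (0.131), Kcnj11 (0.145) and Nrgn (0.440) did. Kcnj11, Pam and Sec11c lost theirs without the adult (edgeR adjusted p 0.0757 to 0.1501) and without the irradiated library (0.1003 to 0.353), where Nrgn had a log2 fold change of -0.09. None of 17 genes of G2 and mitosis differed by this test, against the 6.76% higher and 5.73% lower of all genes. That list was sparse in Sst cells: it summed to 220 at E17.5, 88.0 in the adult and 89.2 after irradiation CPM. Its median per cell was 0 in each library, which limits what the test could detect. Over all genes the median log2 fold change was 0.0047; it was -0.16 for the granule list, -0.17 for receptors, -0.08 for the transcription factors and -0.06 for channels.

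Further genes named by size of change on the higher side were Rgs4, Meg3, Serpina1a, Igfbp7, Clmn and Acot7, with log2 fold changes from 2.67 (Acot7) to 3.26 (Rgs4). Clmn and Acot7 did not overlap with the other sums, while Meg3 overlapped with 6, Rgs4 and Igfbp7 with 2 each and Serpina1a with 1. Meg3, an imprinted noncoding RNA, stood at 1984 at E17.5, 403 in the adult and 279 after irradiation CPM, and its call was lost without the irradiated library (edgeR adjusted p 0.0804). Serpina1a has near-identical copies, so its count is uncertain. On the lower side they were Myl7 (-3.92), a myosin light chain, Upp1 (-3.81), Krt20 (-3.54), Agr2 (-3.40), the brush border enzyme gene Sis (-3.24), Fars2 (-3.24) and Gpd2 (-3.21). Krt20 and Agr2 overlapped with 3 other sums each and Etv1 with 2; the remaining lower genes named here did not overlap. Bmi1 itself, on which the cells were sorted, was 26.3, 26.6 and 24.3 CPM (log2 fold change 0.70, edgeR adjusted p 0.0186). Its call was lost with the other classes pooled within each library (edgeR adjusted p 0.1089), without the adult (0.181) and without the irradiated library (0.158).

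**Figure D2:**
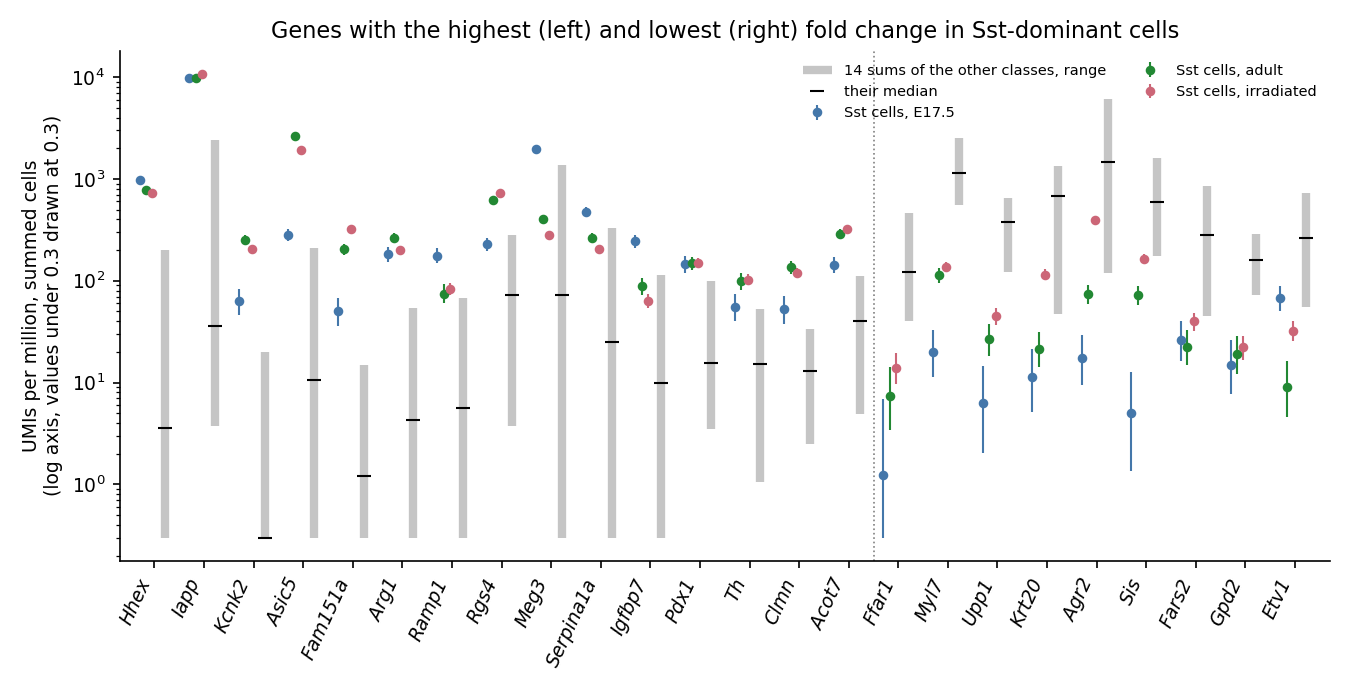
Levels in CPM on a log axis of the 15 genes with the highest (left of the dotted line) and 9 of the 10 with the lowest (right) log2 fold change in somatostatin-dominant cells; coloured points are the 3 Sst sums with exact 95% Poisson intervals, grey bars the range of the 14 sums of the other hormone classes, and black ticks their median. Hhex lies between 726 and 975 in the Sst sums and at or below 199 in the others, while Ffar1 lies at or below 13.9 and at or above 40.02.

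Some of the somatostatin-dominant cells at E17.5 had few transcripts of intestinal marker genes. Of 12 genes fixed as markers of intestinal epithelium, among them Cdx2, Vil1 and Lgals4, 64 cells had at least 5 UMIs per 10000 in sum and 42 had fewer. Only 3 adult cells and 1 irradiated cell lay under that line, and 10 of the E17.5 cells lay between 4 and 6. The line was drawn after the cells had been seen. The labels call all of these cells intestinal epithelial cells. Levels of the marker list itself follow from the split and are not compared.

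Several transcripts known from the islet were higher in the cells with few intestinal markers. Ppy, pancreatic polypeptide, stood at 4224 CPM in them and 38.4 in the intestinal-marker cells, Pyy at 54430 and 11466, and Ins2 at 299 and 58.6. Pyy is not on the islet list, and the rule limited Ins2. Of 5 measured genes of that list, 3 (Ppy, Ins2 and Nnat) were more than 2-fold higher in the cells with few intestinal markers. The number more than 2-fold lower there was 0. Of all 1386 measured genes, 5.12% were more than 2-fold higher there. Ppy was uneven: 21 of the 42 cells had no UMI of it, 4 reached 1%, and 1 cell held 740 of 1287 UMIs, without which the level was 1889 CPM. Iapp, the most abundant gene of the islet list, was not higher there (8222 against 10642 CPM). Nkx6-1 had 14 UMIs in the first and 0 in the second, and Mafa, Ucn3 and Slc2a2, further islet markers, had few in either. Pax4, also on the islet list, went the other way, with 1 UMI in the cells with few intestinal markers and 19 in the intestinal-marker cells. Mnx1, from the same list, had 0 and 5. The retinol carrier gene Rbp4, reported for pancreatic delta cells, stood at 17665 against 4868 CPM, and Frzb, from the same list, at 164 against 18.2. Meis2 (742 against 113 CPM), Nnat (505 against 44.5) and Spp1, or osteopontin (1631 against 2.02), were on the same side. Spp1 had UMIs in 13 of the 42 cells, and without the 1 cell that held 327 of its 497 UMIs it stood at 609 CPM. The summed stomach list was low in both, at 55.8 and 46.5 CPM.

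Of 11 measured peptide and hormone enzyme genes, 6 were more than 2-fold higher in the intestinal-marker cells and 3, Ppy, Pyy and Ins2, more than 2-fold lower. Among the 11, Sst, Ghrl, Gip, Cck and Ins2 were used by the rule that chose the cells, so these counts are a description. Ghrl, Gip and Cck were among the 6 genes higher in the intestinal-marker cells. Ghrl stood at 77338 CPM in them and 5311 in the others, and reached 1% of UMIs in 53 of 64 against 3 of 42 cells. Sct stood at 11107 against 706 CPM and Asic5 at 455 against 3.28, a single UMI. Kcnk2 (92.99 against 13.1 CPM) and Fam151a (74.8 against 9.85) went the same way. The leading genes of the class test lay differently at E17.5: Asic5, Kcnk2 and Fam151a had 225 of 226, 46 of 50 and 37 of 40 UMIs in intestinal-marker cells, whereas Hhex (849 against 1178 CPM), Iapp, Isl1 (782 against 1063), Pdx1 (127 against 174) and Arg1 (146 against 239.6) were in both. The median depth was 7170 UMIs in the intestinal-marker cells and 6460.5 in the others. Over 1386 genes with enough UMIs, 121 (8.73%) were more than 2-fold higher and 71 (5.12%) more than 2-fold lower in the intestinal-marker cells.

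**Figure D3:**
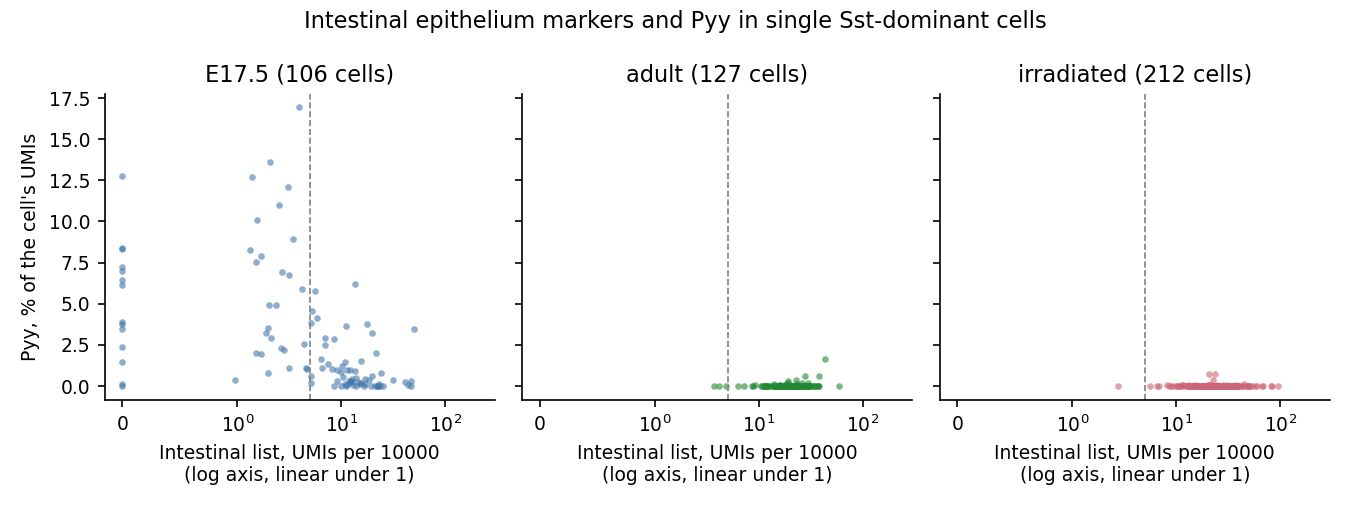
Each point is 1 somatostatin-dominant cell; the horizontal axis gives the summed UMIs of 12 intestinal epithelium markers per 10000 UMIs (log axis, linear under 1) and the vertical axis Pyy as a percent of the cell's UMIs, and the dashed line marks 5 per 10000. Of the E17.5 cells 42 lie left of the line, 38 of them with at least 1% Pyy, against 20 of the 64 cells to the right; 3 adult cells and 1 irradiated cell lie left of it.

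From E17.5 to the adult, Hhex, Iapp and Pdx1 stood within 2-fold. The islet peptides Ppy and Ins2 and fetal transcripts were lower and antigen-presentation genes higher. The comparison has 1 library a side and no test, so a gene is described as past 2-fold on the log2(CPM + 1) scale, among genes that reached 50 UMIs in 1 or both libraries. Of 3739 genes, 513 (13.7%) were more than 2-fold higher and 301 (8.05%) more than 2-fold lower in the adult, with a median log2 ratio of 0.05. With only the intestinal-marker cells of E17.5, 147 were lower in place of 301; fewer genes then reached 50 UMIs, and over the same 3739 genes 526 were higher and 229 lower.

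The 11 measured genes of the interferon response list, which includes the proteins that load and display peptides on the cell surface, were all more than 2-fold higher in the adult. B2m, the light chain of class I molecules, stood at 21.3 (12.4 to 34.1) CPM at E17.5 and 281 (251 to 312) in the adult, and Psmb8, an immunoproteasome subunit, at 17.5 (9.58 to 29.4) and 140.3 (119.9 to 163). Ifi27 stood at 23.8 (14.3 to 37.1) and 292 (262 to 324). The median log2 ratio of the list was 2.28, against 0.05 for all genes, and 1.07 for the same genes in the other hormone classes, where 6 of the 11 were past 2-fold. With only intestinal-marker cells at E17.5 the median was 1.71. Of 20 immediate early genes, which many stimuli induce within minutes, 13 were more than 2-fold higher, with a median of 1.18 (0.95 in the other classes), and Fosb stood at 191 and 921 CPM.

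Of 10 measured genes of fetal growth and imprinting, 7 were more than 2-fold lower in the adult. The growth-restraining noncoding RNA H19 had 152 UMIs at E17.5 and 0 in the adult, at least 76.4-fold lower when 3 counts are allowed for, and the imprinted genes Mest and Ndn were at least 31.6-fold and 37.2-fold lower. Mdk, which encodes the growth factor midkine, stood at 97.6 and 1.66 CPM. Cdkn1c and Marcksl1 stood within 2-fold, with log2 ratios of 0.01 and -0.30. The median of the list was -3.01, and -4.83 in the other hormone classes, but -1.13 when only genes with at least 200 UMIs were taken and -4.32 with at least 20. With the intestinal-marker cells alone Mest was at least 3.25-fold lower, and the median was -0.81 over the genes then measured and -2.58 over the same genes. Dlk1 and Meg3, from the same list, stood above each of the other classes of the same library in all 3 libraries, Dlk1 at 324 at E17.5, 93.8 in the adult and 34.6 after irradiation CPM.

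The islet peptides Ppy and Ins2 stood far lower in the adult, while Iapp did not (9719 CPM at E17.5 and 9792 in the adult). Ppy had 1306 UMIs at E17.5, 0 in the adult and 2 after irradiation, which is at least 656-fold lower in the adult. Ins2 was at least 60.3-fold lower, and the acinar enzyme gene Ctrb1 at least 151-fold lower. The rule itself limited Ins2: its insulin threshold removed 2 cells at E17.5, 0 in the adult and 0 after irradiation. The Ins2 values are therefore a description of the cells that were kept. Without the 1 E17.5 cell that held most of each, the bounds were 289.8-fold for Ppy and 80.96-fold for Ctrb1. In the intestinal-marker cells alone they were 15.4-fold for Ppy, 23.5-fold for Ins2 and 61.7-fold for Ctrb1. Pyy stood at 27842, 459 and 133 CPM. The summed acinar list was 1574 CPM at E17.5 and 98.8 in the adult; it was 4248 in the other hormone classes at E17.5, and its part in these differences was not tested. Further named genes were Fam159b (at least 51.2-fold lower, and 27.6-fold with intestinal-marker cells alone), the cadherin gene Cdh2 (44.7-fold), Ncam1 (39.2-fold, and 17.05-fold with intestinal-marker cells alone) and Ly6h, with 153 and 0.830 CPM.

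Of the 10 genes with the highest adult to E17.5 ratio, 5 were alpha-defensins or other Paneth cell products. Defa30 had 0 UMIs at E17.5 and 959 in the adult, at least 212-fold higher. Those genes stood higher in the other hormone classes of the adult: Defa30 stood at 796 CPM in adult Sst cells and 1342 in the other classes, Defa24 at 1589.7 and 2661. The summed Paneth list stood at 3154 CPM in adult Sst cells and 5016 in adult tuft-marked cells. Pigr, the transporter of immunoglobulin A, stood at 3.75 and 911 CPM, against 3.57 and 326 in the other classes. Itln1, Clca3b, Defa29 and Adh6a each had 0 UMIs at E17.5, with lower bounds between 19.02-fold (Adh6a) and 34.1-fold (Itln1); Adh6a's was 10.9-fold without the 1 cell with most of its UMIs. Olfm4, a stem cell gene, stood at 183 CPM in the adult, and at 42.8 without the 1 cell that held most of it.

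After irradiation Sst, Hhex, Iapp and Pdx1 stood within 2-fold of the adult, and targets of p53 were higher. Of 6462 genes measured by the same rule, 207 (3.2%) were more than 2-fold higher and 57 (0.882%) more than 2-fold lower in the irradiated library, with a median log2 ratio of 0.08. The log2 ratio was -0.27 for Sst, -0.11 for Hhex, 0.11 for Iapp, 0.02 for Pdx1 and -0.46 for Asic5.

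Genes that p53 switches on after DNA damage stood higher as a group. Of 20 measured p53 targets, 9 were more than 2-fold higher, none was more than 2-fold lower, and 19 had a positive ratio, with a median of 0.94 against 0.08 for all genes. A positive ratio was found for 3884 of all 6462 genes. Ccng1, cyclin G1, stood at 21.6 (14.1 to 31.6) CPM in the adult and 128 (115 to 143) after irradiation. Phlda3, a repressor of Akt, stood at 12.5 (6.97 to 20.5) and 76.8 (66.4 to 88.5), and Aen, a nuclease of apoptosis, at 13.3 (7.59 to 21.6) and 58.1 (49.1 to 68.3). Bax, which opens the mitochondrial membrane, stood at 121 (102 to 143) and 262 (243 to 283), and Mdm2, which holds p53 in check, at 31.5 (22.3 to 43.3) and 69.3 (59.3 to 80.3). For all 5 genes the adult and irradiated intervals did not overlap.

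The remaining p53 targets past 2-fold were Zmat3, Gdf15, Sesn2 and Plk2, with log2 ratios between 1.04 (Plk2) and 1.46 (Zmat3). Cdkn1a, the cell cycle inhibitor p21, was already 887 (835 to 942) CPM in the adult and stood at 1462 (1415 to 1509.9) after irradiation, a log2 ratio of 0.72. The apoptosis genes Bbc3 (0.35) and Pmaip1 (0.21) and the early target Btg2 (-0.04) stood close to their adult level. The same 20 genes had a median of 0.78 in the other hormone classes, where 7 were past 2-fold, 6 of them the same as in Sst cells. Over the alternative ways of processing the median ran from 0.60, with at least 200 UMIs a gene, to 0.97.

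The medians of other stress lists lay nearer to the 0.08 of all genes. Of 23 interferon response genes 2 were more than 2-fold higher, against 3.2% of all genes, with a median of 0.23. Of 22 immediate early genes 3 were more than 2-fold lower, against 0.882% of all genes, namely Egr2 and the heat shock genes Hspa1a and Hspa1b (median -0.13; 1 of the 22 in the other classes). Of 23 genes of folding in the endoplasmic reticulum none was past 2-fold (median 0.01). Of 31 granule and processing genes, 27 had a positive ratio, against 3884 of all 6462 genes. In this list 3 genes were past 2-fold, and the median was 0.31 (0.28 in the other classes). The 3 were Chga, at 622 and 2059 CPM, Chgb, at 3584 and 7315, and Rab3c, a small GTPase of secretory granules, at 3.32 and 34.2.

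**Figure D4:**
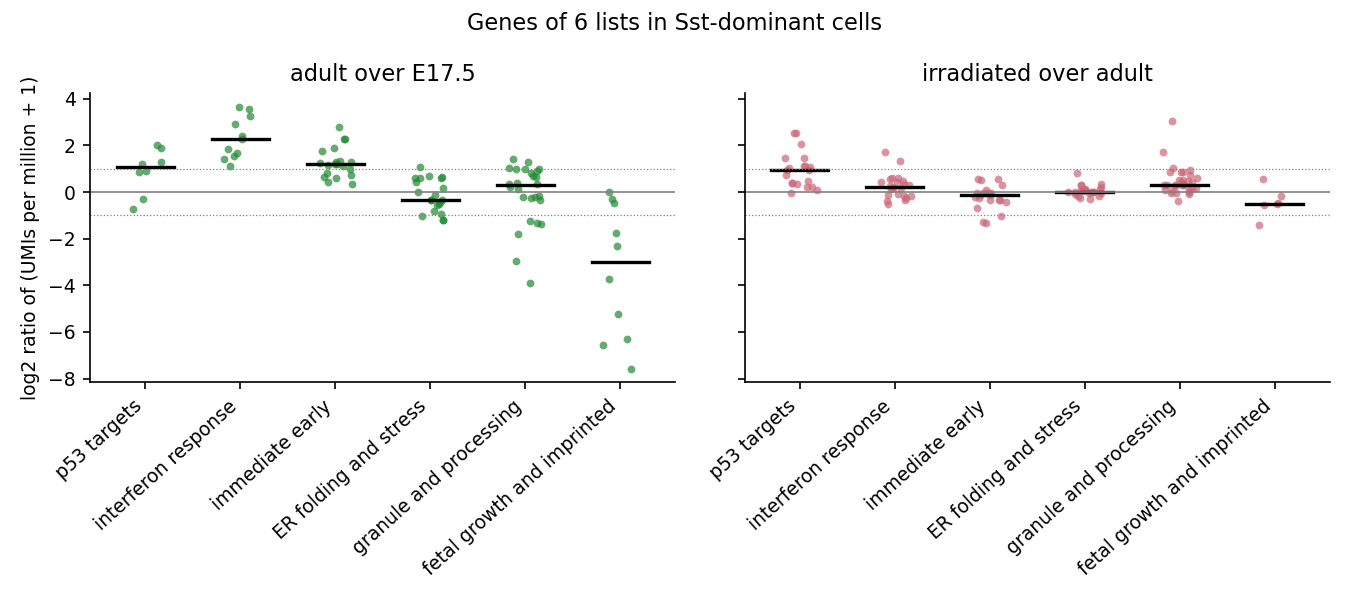
Each point is 1 gene of a list in somatostatin-dominant cells, the vertical axis is the log2 ratio of CPM plus 1, black bars are list medians and dotted lines mark 2-fold; the left panel compares adult with E17.5 and the right panel irradiated with adult. The interferon list has a median of 2.28 on the left and 0.23 on the right, and the p53 list a median of 0.94 on the right.

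The granin difference was not past 2-fold outside a minority of irradiated cells. In 44 of 212 irradiated cells Reg4, a secreted lectin, reached 10 UMIs per 10000, against 2 of 127 adult and 4 of 106 E17.5 cells. This split was chosen after the values had been seen. In those 44 cells Reg4 stood at 18502 CPM and in the remaining 168 at 199. Genes of serotonin-producing enterochromaffin cells were on the same side: Chga stood at 8533 against 494 CPM, Chgb at 20284 against 4178 (adult levels 622 and 3584), the serotonin-synthesis enzyme gene Tph1 at 1343 against 106, the substance P precursor Tac1 at 785 against 54.9 and the factor Lmx1a at 155 against 12.9. The somatostatin cell genes were lower in the 44 but present: Sst 86721 against 172968 CPM, Hhex 347 against 817, and Iapp 5959.6 against 11701.

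Doublets move with that split. Scrublet, which scores barcodes for the likely presence of a pair of cells, put 12 of the 44 and 9 of the 168 among its highest scores. Without the scored cells Chga stood at 8588 against 382 CPM, Tph1 at 1100.2 against 58.1 and Sst at 84943 against 179829. The median depth was 11734 UMIs in the 44 cells and 11817 in the 168. Whether unscored doublets make up the 44 was not tested.

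Several of the largest irradiated to adult ratios rested on few cells. Zg16, a goblet cell product and the gene with the highest ratio (10.38), had 8909 UMIs, of which 8497 lay in 1 cell of 40155 UMIs that also had 6.21% Sst and 10 Hhex UMIs and was not scored as a doublet. Without that cell Zg16 stood at 167 in place of 3546 CPM (log2 ratio 5.98), and the mucin gene Muc2 at 20.2 in place of 258 (log2 ratio 3.00). The log2 ratio of Fcgbp was 3.50 with the cell and 0.15 without it. All 7 measured genes of the goblet list were more than 2-fold higher (median 3.50), and without the cell 4 of 6 were (median 1.57), against a median of 1.93 in the other hormone classes. For Gcg, proglucagon, 82.9% of the irradiated UMIs lay in the 21 doublet-scored cells, and the log2 ratio was 5.06 with them and 2.77 without. For Cck it was 2.70 and 1.27.

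Tac1 (log2 ratio 4.86), Afp (3.79), Reg4 (3.34), the antimicrobial lectin gene Reg3g (2.90) and S100a6 (2.73) were the other named genes on the higher side. Without the 1 adult cell with most UMIs of the gene the log2 ratio was 5.81 for Tac1, 5.23 for Afp and 5.76 for Reg4, 367 of whose 448 adult UMIs lay in that cell. Of the tuft cell list, 6 of 8 genes were more than 2-fold higher (median 1.42, and 0.49 in the other classes), and the summed list stood at 277 CPM in the adult and 791 after irradiation. Its median per cell was 0.713 and 1.16 UMIs per 10000 and its highest cell 81.8 and 130.3; the part of tuft RNA in the result was not tested.

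The 8 genes named here for the lowest ratios were also more than 2-fold lower in the other hormone classes. Olfm4 had a log2 ratio of -4.24, or -2.17 without the 1 adult cell that held most of it. Ftl1-ps1, a ferritin pseudogene, stood at 85.5 and 13.1 CPM in Sst cells and at 63.4 and 9.54 in the others. Wdr89, Ccl25, Defa17, Rnaset2a, Rnaset2b and Adh6a had log2 ratios between -2.57 (Defa17) and -2.14 (Rnaset2a) in Sst cells, with -1.56 for Adh6a without the 1 adult cell with most of its UMIs. Several of these have near-identical copies, so reads may be split between copies.

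Levels also varied among the cells of each library. After thinning to 2000 UMIs, the genes with the highest variance relative to their mean (Fano factor) were Ghrl (140), Pyy (86.4) and Sst (77.9) at E17.5, Sst (81.7), Ghrl (62.5) and Malat1 (57.3) in the adult, and Zg16 (352), Ghrl (71.8) and Reg4 (55.5) after irradiation. The median over genes was between 1.05 and 1.09. Ghrl was thus among the 2 most variable genes in each library. Markers of cells outside the epithelium were nearly absent: the fibroblast and smooth muscle lists had 0 UMIs in adult and irradiated Sst cells, and the immune list stood at or below 16.6 CPM in all 3 libraries. The eGFP transcript had 2, 3 and 50 UMIs, and no barcode was shared between the Sst cells of any 2 libraries. Transcripts of the Y chromosome had 97 UMIs at E17.5 and 0 in the adult and irradiated cells, and Xist had 370, 1875 and 3045. The part of sex in the comparison of E17.5 with the adult was not tested.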

How the data were processed

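The data are 4 droplet libraries of Bmi1-GFP mouse intestinal epithelium, 1 per group, of which the E17.5, adult and irradiated ones were used. The deposited values are raw UMI counts per gene and barcode, whole numbers without normalization. Cell Ranger 3.1.0 and the build mm10 are named in the submitters' processing notes; the annotation and the rule that selected barcodes are not given in the sources used here. The 3 libraries used total between 38648331 and 77677622 counts.

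Cells were kept with 500 genes or more and no more than 20% mitochondrial counts, and assigned to the hormone with most counts at 2% or more of the cell. Counts were summed over cells and given per 1000000 (CPM). The class comparison used edgeR 4.0.16 (TMM, filterByExpr, quasi-likelihood test, Benjamini-Hochberg adjustment over all genes) on sums of at least 20 cells; the 6 hormones, Ins1 and Ins2 were left out. Libraries were compared as log2((CPM + 1)/(CPM + 1)) for genes with at least 50 counts in either. The class test was tested on simulated data. Putative doublets (Scrublet in scanpy 1.11.5, the highest scores at 0.8% per 1000 barcodes) were kept, and their removal is an alternative.

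Named genes are the 15 highest and 10 lowest class fold changes among genes called with the same sign in every library and at least 50 CPM on the higher side; the 10 highest and 10 lowest ratios per library pair among genes with a count in 20% of the cells; members of 28 lists of 492 symbols (2, Gpr120 and Amy2b, were not matched); and the most variable genes. Ranked names omit mitochondrial, ribosomal, Xist, Y-linked and predicted genes, and a few further genes that met the rule are not reported here. The cells and lists were chosen with earlier results of these data known. Promoter windows came from RefSeq (GRCm38.p6), without chromosome 18, and gene positions from GENCODE M21. Python 3.11.15 and R 4.3.3 were used, with DESeq2 1.42.0 for an alternative.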

Additional observations from a re-analysis of the deposited data

How the results depend on the processing

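No gene named by size of change and no list median between libraries (at 0.2 or more) changed sign under an alternative that measured it. With every deposited barcode, somatostatin-dominant cells were 2.69% of the adult and 4.67% of the irradiated library. With at least 1000 genes and at most 10% mitochondrial UMIs they were 5.87% and 7.84%, and 11.5% of the hormone-dominant adult cells, above the 10.7% of E17.5, which turns their order. The class test gave 327 to 1016 higher and 248 to 710 lower genes when 1 library was left out. DESeq2 gave 662 and 623, no filter on low counts 1005 and 821, and classes of at least 50 cells 602 and 462. With the other classes pooled into 1 sum per library, as 3 pairs, the class test gave 523 higher and 764 lower genes. Of these, 440 and 521 were also called with the classes kept apart, and library was a term in both fits. For the adult against E17.5, 1016 genes were higher and 639 lower with at least 20 UMIs, and 120 and 84 with at least 200; the lower count was 199 with Sst at 5% or more of UMIs and 147 with E17.5 intestinal-marker cells alone, an alternative chosen after seeing the data. For irradiated against adult, 438 were higher and 141 lower with at least 20 UMIs, and 50 and 11 with at least 200; the higher count was 104 with a pseudocount of 10 CPM. These filters change how many genes are measured. The planned set of cells with no UMI of Iapp, Ppy, Ins1 or Ins2 held 1, 8 and 4 cells and was not run. Of the class genes named by size of change only Meg3 lost its call. Of 53 list members that were called, 36 to 52 kept direction and call under each alternative, fewest without the irradiated library; with 1 library left out Nrgn ran from -0.0888, without the irradiated library, to 1.22, and it was -1.14 with classes of at least 50 cells. Depth limits what can be read from genes under about 50 UMIs in either library, and 1 library a group limits every comparison between stages or treatments.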
